A study of Homo sapiens with 24 samples.

Results

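The comparison set HepaRG cells that received a control siRNA and then Wnt3a (siCTRL_WNT3A) against cells given Wnt3a with no transfection (NT_WNT3A). Both groups were taken by their sample labels alone, with 3 arrays each, so that 6 of the 24 arrays of the series were compared. HepaRG is a human liver progenitor line of tumour origin that can mature toward hepatocyte-like and biliary-like cells. The study examined how Wnt3a and its effector β-catenin (gene CTNNB1) set gene expression in these cells, and the control siRNA was the reference for a CTNNB1 siRNA. In both groups Wnt3a was given at 200 ng/ml for 72 h. The transfected cells were detached and received 80 pmol of siRNA in suspension, with 1 electric pulse of 1500 V that lasted 20 ms. For cells given conditioned Wnt3a medium without transfection, the methods describe the same 2 rounds of detachment and seeding. Neither they nor the labels say whether this held for the untransfected cells on these arrays, which received recombinant protein, so detachment, the pulse and the oligonucleotide cannot be told apart. The other groups without Wnt3a were untransfected cells (NT), control siRNA cells (siCTRL), CTNNB1 siRNA cells (siCTNNB1) and untransfected cells given FZD8_CRD (FZ8CRD). Those with Wnt3a were CTNNB1 siRNA cells (siCTNNB1_WNT3A, also 80 pmol) and untransfected cells given FZD8_CRD (FZ8CRD_WNT3A). FZD8_CRD is a soluble Wnt-binding domain and was given at 300 ng/ml. The siCTNNB1 and FZ8CRD arrays enter below through the fit and the plot of list means in all 24 arrays. All groups come from 1 cell line, and 1 control siRNA was used.

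Mature hepatocytes devote much of their RNA to secreted plasma proteins and to enzymes of drug, lipid and sugar metabolism, under a network of liver transcription factors. Cells that re-enter the division cycle switch on a different set of genes, first for DNA synthesis and then for mitosis. Foreign double-stranded RNA can be sensed inside cells and can switch on interferon-stimulated genes, and a Wnt signal reaches β-catenin through Frizzled receptors and LRP co-receptors.

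Each value below is a log2 signal on a scale where 0 is as bright as the 75th percentile of that array's probes, and -6.13 is the floor given to signals at or below the detection limit. A gene was called where the Benjamini-Hochberg adjusted p of a limma fit over 24648 genes was under 0.05, and SE is the standard error of that fit. Unless another setting is named, the fit held all 24 arrays of the 8 conditions, with a spread shared by all conditions. SE and adjusted p thus rest on the other treatments as well as on the groups compared. The number of arrays limits the precision. The siRNA target followed the labels. CTNNB1 was at 3.40, 3.31 and 3.47 in the NT_WNT3A arrays of replicates 1, 2 and 3. It was at 3.39, 3.62 and 3.67 in siCTRL_WNT3A and at 0.33, 0.52 and 0.77 in siCTNNB1_WNT3A. The NT_WNT3A and siCTRL_WNT3A values overlapped (log2 difference 0.17, adjusted p = 0.649), and the siCTNNB1_WNT3A values lay below all of them.

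Control siRNA cells with Wnt3a held less RNA for plasma proteins, liver enzymes and several liver transcription factors than untransfected cells with Wnt3a, and more RNA for DNA synthesis and mitosis. Of 24648 genes tested, 1342 were called higher (5.44%) and 885 lower (3.59%), with a median log2 change over all genes of -0.02. The falls were larger than the rises: 303 genes called lower fell by more than 1 log2 unit, against 87 genes called higher that rose by as much. Beyond 2 log2 units there were 82 falls and 2 rises. In bulk RNA, fewer cells of a type and less RNA per cell cannot be told apart.

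The number of calls differed between fits and when single arrays were left out. With only the 6 arrays in the fit, 0 genes were called higher and 1 lower by limma, while with the replicate number, which is also the slide, as a block in the full fit the counts were 2269 and 1485. Leaving out NT_WNT3A replicate 1 gave 160 higher and 111 lower, without NT_WNT3A replicate 2 there were 2412 and 1633, and without NT_WNT3A replicate 3 there were 805 and 522. Without siCTRL_WNT3A replicate 2 the counts were 199 and 149, and without siCTRL_WNT3A replicate 3 they were 635 and 378. Leaving out replicate 1 of all 8 conditions gave 1 and 0, replicate 2 gave 520 and 364, and replicate 3 gave 804 and 450. Scaling to spike-in probes gave 134 and 106. All 2227 genes held the direction of their change in each of these fits, except under spike-in scaling, where 2202 did. Of the genes called, 1340 of 1342 were higher in all 3 same-numbered pairs of arrays and 879 of 885 were lower in all 3. These genes were called on the same arrays, so their signs are not independent of the calls. Of all 24648 genes, 5836 were higher and 6353 lower in all 3 pairs. NT_WNT3A replicate 2 stood apart from the other untransfected arrays with Wnt3a, toward the transfected arrays, as the gene groups below show. Several list medians near 0 given below changed sign when 1 array was left out. On every slide NT_WNT3A and siCTRL_WNT3A had the same neighbouring positions, so that position and group cannot be told apart.

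**Figure D1:**
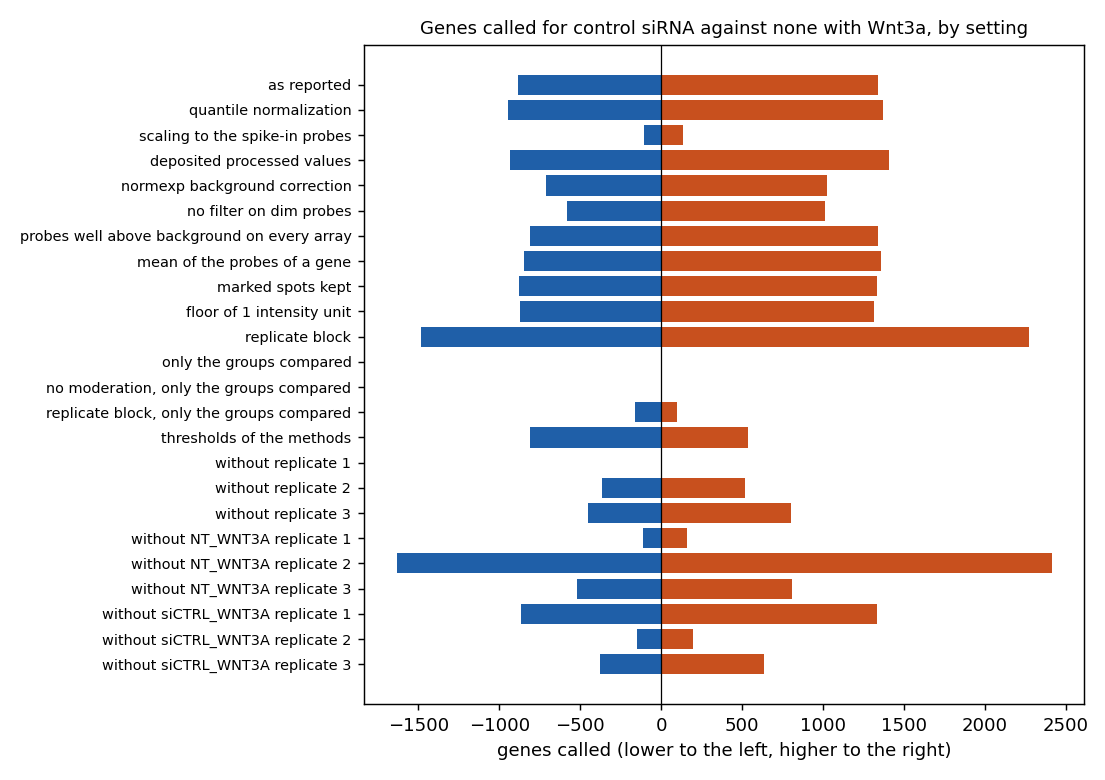
Number of genes called lower (to the left, blue) and higher (to the right, orange) for siCTRL_WNT3A against NT_WNT3A under each setting, with the reported setting at the top. The counts ran from 0 higher and 1 lower with only the 6 arrays in the fit, and 1 and 0 without replicate 1 of all conditions, to 2412 higher and 1633 lower without NT_WNT3A replicate 2.

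Plasma protein genes made up the widest group of falls. Of 41 genes tested, 28 were called lower (68.3%, against 3.59% of all genes) and 0 higher (limma), and their median log2 change was -1.38. In all 3 same-numbered pairs 40 of 41 were lower, against 6353 of all 24648 genes. The mean log2 signal of the 41 genes was 3.21, 2.02 and 3.36 in the NT_WNT3A arrays, and 1.5, 1.15 and 1.49 in the siCTRL_WNT3A arrays. The lowest untransfected array, replicate 2, was closer to the transfected arrays than to its own group, yet the groups did not overlap. The within-slide median differences of the list were -1.53, -0.72 and -1.88. The list had 4 genes called lower without NT_WNT3A replicate 1, 9 without NT_WNT3A replicate 3, 4 without siCTRL_WNT3A replicate 2 and 18 without siCTRL_WNT3A replicate 3. Scaling to the spike-in probes in place of the percentile moved the median change of all genes to 0.25, and the plasma protein genes then had a median of -1.10, with 12 called lower.

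Albumin (ALB), the main protein of blood plasma, had a log2 signal of 9.18, 7.79 and 9.11 in NT_WNT3A and of 6.92, 6.07 and 6.84 in siCTRL_WNT3A. Every transfected array was below every untransfected one, and replicate 2 was the lowest of each group. The means were 8.70 ± 0.78 and 6.61 ± 0.47 (SD, n = 3 each), and ALB fell by 2.09 log2 units (SE 0.31, limma adjusted p = 0.00162), which is 4.25-fold. Orosomucoid (ORM1), an acute-phase carrier protein, was at 8.72, 7.44 and 8.74 against 6.67, 6.02 and 6.66. Its groups did not overlap, and it fell by 1.85 (SE 0.31, adjusted p = 0.00238). Fibrinogen beta chain (FGB), a clotting protein, was at 4.07, 2.53 and 4.27 against 1.78, 1.14 and 1.92. It fell by 2.01 (adjusted p = 0.00731), also with no overlap. ALB and ORM1 kept their calls without any 1 of the 6 arrays, whereas FGB lost its call without NT_WNT3A replicate 1 (adjusted p = 0.0616) and without siCTRL_WNT3A replicate 2 (0.0584). The steepest fall among secreted proteins was that of complement factor H-related 2 (CFHR2), at -2.09, -1.10 and -1.75 untransfected and at the floor on all 3 transfected arrays. None of those 3 arrays was well above background, so the gene was at least 20.4-fold lower (adjusted p = 0.00162).

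The promoters of ALB and FGB are shown because these genes fell together. RefSeq promoters of build GRCh38.p14, from 250 bases before to 50 after the start of transcription, were found for 29 of the 41 plasma protein genes. The CCAAT box, on either strand, was in 13 of the 29 (44.8%), against 35.7% of 27305 promoters in all and 36.6% of the 12390 promoters of genes tested. Capitals mark CCAAT or its reverse complement, on the plus strand at chr4:73404037-73404336 for ALB and chr4:154562730-154563029 for FGB.
ALB: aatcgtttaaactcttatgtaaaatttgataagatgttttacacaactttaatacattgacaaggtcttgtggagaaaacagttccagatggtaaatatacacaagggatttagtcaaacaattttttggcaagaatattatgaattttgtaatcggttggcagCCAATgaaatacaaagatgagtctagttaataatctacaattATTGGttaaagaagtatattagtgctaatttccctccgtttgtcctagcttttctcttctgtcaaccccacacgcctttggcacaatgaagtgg
FGB: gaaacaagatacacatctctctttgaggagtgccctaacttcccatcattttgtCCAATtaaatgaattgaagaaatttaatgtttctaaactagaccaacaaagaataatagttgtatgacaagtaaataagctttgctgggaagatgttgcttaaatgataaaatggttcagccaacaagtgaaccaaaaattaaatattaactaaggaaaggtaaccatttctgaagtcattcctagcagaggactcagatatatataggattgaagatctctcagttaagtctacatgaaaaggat
A match describes the letters and is neither a binding site nor a cause.

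Liver enzymes fell as well. Of 29 hepatocyte metabolism genes tested, 14 were called lower (48.3%, against 3.59% of all genes) and 0 higher. The median was -1.16, also with the 6 genes below detection in 1 group set at their bounds. A probe passed the filter where it was well above background on all 3 arrays of any 1 condition, so a gene high in only 1 condition could enter. Where every array had to be well above background, 16 genes were left, with 7 called lower and a median of -1.01. The median was -0.65 with normexp background correction and -1.63 with another floor. The drug-metabolizing cytochrome CYP2C8 was at -1.59, -3.65 and -1.07 in NT_WNT3A and at -6.13, -6.13 and -5.79 in siCTRL_WNT3A. It was not well above background on any transfected array, and it was at least 14.7-fold lower (adjusted p = 0.00366). Fatty acid-binding protein 1 (FABP1), named for its large change and not a member of the list, was at 0.49, -1.70 and 0.71 against -3.78, -5.39 and -3.42. Replicate 2 was again the lowest of both groups, and the groups did not overlap. FABP1 fell by 4.03 (SE 0.75, limma adjusted p = 0.00463). CYP2C8 and FABP1 kept their calls without any 1 of the 6 arrays. The list's count of genes called lower was 2 without NT_WNT3A replicate 1, 8 without NT_WNT3A replicate 3 and 2 without siCTRL_WNT3A replicate 2, and it was 9 with spike-in scaling, with a median of -0.89.

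Transcription factors of the liver fell in part. Of 19 tested, 6 were called lower (31.6%, against 3.59% of all genes) and 0 higher. The median was -0.31, and -0.47 without NT_WNT3A replicate 2. Under spike-in scaling the median was -0.03, and 2 were called. ONECUT1, the factor HNF6 that drives liver and bile duct development, was at 0.49, -1.21 and 0.41 in NT_WNT3A and at -2.53, -3.76 and -2.90 in siCTRL_WNT3A. All transfected arrays lay below all untransfected ones. ONECUT1 fell by 2.96 (SE 0.43, limma adjusted p = 0.00162) and kept its call without any 1 of the 6 arrays. NR1H4, the bile acid receptor FXR, fell by 2.13 (adjusted p = 0.0105). NR1H4 lost its call without NT_WNT3A replicate 1 (adjusted p = 0.0848) and without siCTRL_WNT3A replicate 2 (0.0821), and the list then held 1 call each. Without NT_WNT3A replicate 3 the list had 2 calls, and without siCTRL_WNT3A replicate 3 it had 3. HNF4A, a master factor of hepatocytes, was dim in both groups, at -3.72, -4.30 and -4.01 against -4.05, -5.20 and -5.42, and was not called (adjusted p = 0.13, and 0.0232 without siCTRL_WNT3A replicate 1).

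**Figure D2:**
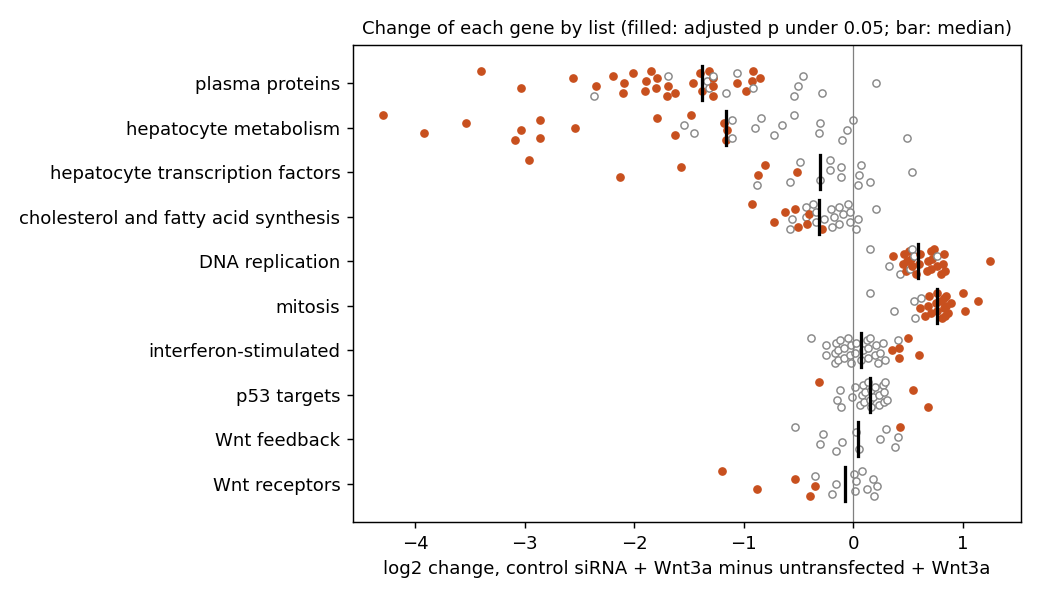
Log2 change of each gene tested (siCTRL_WNT3A minus NT_WNT3A) in 10 gene lists, with genes called filled in orange, others open, and a black bar at the list's median. Plasma protein genes (median -1.38) and liver enzymes (-1.16) lie to the left and genes of DNA replication (0.59) and mitosis (0.77) to the right.

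Genes of the division cycle moved the other way. Of 30 DNA replication genes tested, 23 were called higher (76.7%, against 5.44% of all genes) and 0 lower (limma), with a median of 0.59. In all 3 same-numbered pairs 30 of 30 were higher, against 5836 of all 24648 genes. Of 25 mitosis genes, 20 were called higher (80%) and 0 lower, with a median of 0.77. The mean log2 signal of the mitosis genes was 1.47, 2.12 and 1.34 in NT_WNT3A and 2.31, 2.5 and 2.35 in siCTRL_WNT3A. NT_WNT3A replicate 2 was thus the highest untransfected array for mitosis and the lowest for plasma proteins. With spike-in scaling the medians were 0.86 and 1.04 against 0.25 for all genes, with 3 and 5 genes called higher. Without NT_WNT3A replicate 1 the counts were 1 and 5, without NT_WNT3A replicate 3 they were 9 and 11, without siCTRL_WNT3A replicate 2 they were 2 and 7, and without siCTRL_WNT3A replicate 3 they were 8 and 15.

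RRM2, the ribonucleotide reductase subunit that limits the supply of DNA precursors, was at -0.19, 0.71 and 0.36 in NT_WNT3A and at 1.08, 1.84 and 1.72 in siCTRL_WNT3A. The groups did not overlap, and RRM2 rose by 1.25 (SE 0.21, limma adjusted p = 0.00238), a 2.38-fold change. The mitotic kinase PLK1 was at -0.03, 0.70 and 0.07 against 1.12, 1.65 and 1.37. Its lowest transfected array, replicate 1, was above the highest untransfected array, replicate 2. PLK1 rose by 1.13 (SE 0.19, adjusted p = 0.00249), 2.20-fold. CDC20, which activates the ubiquitin ligase that starts anaphase, was at 1.59, 2.28 and 1.62 against 2.72, 3.04 and 2.78, and rose by 1.02 (SE 0.18, adjusted p = 0.00317). RRM2, PLK1 and CDC20 kept their calls without any 1 of the 6 arrays. CDKN1A, the inhibitor p21 that holds back the cycle, rose as well: it was at 1.33, 1.42 and 1.15 untransfected and at 1.94, 2.24 and 1.76 transfected, with no overlap, a change of 0.68 (SE 0.11, adjusted p = 0.00199). Under spike-in scaling the adjusted p of CDKN1A was 0.0835, and across the settings run its rise was 0.55 to 0.95. CDKN1A is 1 of 26 p53 target genes tested. In the fit without a block 2 of them were called higher and 1 lower (7.69% and 3.85%, near the 5.44% and 3.59% of all genes), with a median of 0.16. With the replicate block 8 of the 26 were called higher and 1 lower, against 2269 and 1485 of all 24648 genes. The higher calls were thus not near the share of all genes in that fit. In all 3 same-numbered pairs 14 of the 26 were higher and 3 lower, against 5836 and 6353 of all genes. With spike-in scaling 0 were called. Calls higher in that list ran from 1 to 9 when each of the 6 arrays was left out, with 9 without NT_WNT3A replicate 2 and 1 without NT_WNT3A replicate 1 or 3 or siCTRL_WNT3A replicate 2. Its call lower stayed only without NT_WNT3A replicate 2.

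PLK1 and CDC20 are shown with a word found in many mitotic promoters, though not in these alone. Of 21 mitosis genes with a promoter in the table, 13 (61.9%) held TTTGAA on either strand, a word of the cell cycle homology region, against 15.4% of all 27305 promoters and 1331 of the 12390 promoters of genes tested. The CCAAT box was in 19 of the 21 (90.5%). The promoters of genes that fell held TTTGAA as well, in 5 of 9 (55.6%) of those found for the 12 largest falls, 27.3% of liver enzymes and 24.1% of plasma protein genes. In the DNA replication list 1 of 25 promoters (4%) held TTTGAA and 14 (56%) held CCAAT. Capitals mark TTTGAA or its reverse complement, on the plus strand at chr16:23678639-23678938 for PLK1 and chr1:43358731-43359030 for CDC20.
PLK1: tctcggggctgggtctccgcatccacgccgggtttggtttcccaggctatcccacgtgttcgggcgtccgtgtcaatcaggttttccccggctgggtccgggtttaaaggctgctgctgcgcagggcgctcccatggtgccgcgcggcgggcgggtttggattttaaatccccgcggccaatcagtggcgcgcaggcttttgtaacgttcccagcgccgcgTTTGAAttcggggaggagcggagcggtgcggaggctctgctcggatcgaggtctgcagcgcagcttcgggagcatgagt
CDC20: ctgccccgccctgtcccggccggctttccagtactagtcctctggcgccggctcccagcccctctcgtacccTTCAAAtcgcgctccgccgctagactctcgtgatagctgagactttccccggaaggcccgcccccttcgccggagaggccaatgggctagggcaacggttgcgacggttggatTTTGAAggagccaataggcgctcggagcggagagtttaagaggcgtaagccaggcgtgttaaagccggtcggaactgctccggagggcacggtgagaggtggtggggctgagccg

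**Figure D3:**
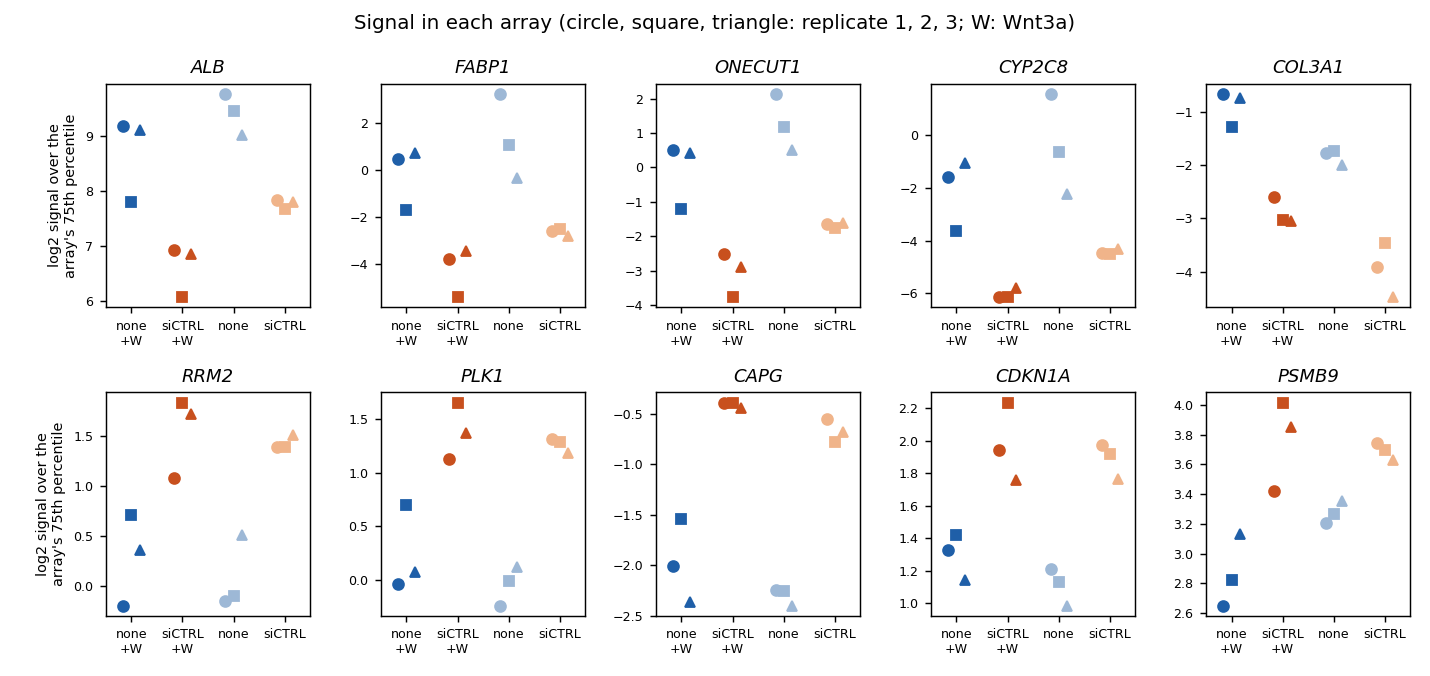
Log2 signal of 10 genes in each array, for untransfected and control siRNA cells with Wnt3a (dark) and without (pale), with a symbol for each replicate. The siCTRL_WNT3A arrays lie below the NT_WNT3A arrays for the genes from ALB to COL3A1 and above them for those from RRM2 to PSMB9, with no overlap in any of the 10.

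The largest rises were of other kinds and mostly of dim genes. Some of the largest rises that are not named here had groups that overlapped. CAPG, an actin-capping protein, was at -2.01, -1.54 and -2.37 in NT_WNT3A and at -0.39, -0.40 and -0.44 in siCTRL_WNT3A. The transfected arrays were nearly alike, and all were above the untransfected ones. CAPG rose by 1.56 (SE 0.22, limma adjusted p = 0.0013). In siCTNNB1_WNT3A, whose cells were also electroporated, CAPG was at -2.46, -2.70 and -3.00, below the level of untransfected cells. The ion channel subunit gene CALHM3 was at -4.30, -4.60 and -4.83 untransfected, -2.99, -3.28 and -2.91 with the control siRNA and -4.62, -5.24 and -5.30 with the CTNNB1 siRNA, where untransfected and CTNNB1 siRNA arrays overlapped. It rose by 1.52 with the control siRNA (adjusted p = 0.000941). The carboxypeptidase gene CPA4 was at -5.95, -4.88 and -5.86 untransfected and at -3.46, -3.34 and -3.69 with the control siRNA, and rose by 2.07 (adjusted p = 0.000941). It was well above background on 1 of the 3 NT_WNT3A arrays, so the size of that rise rests on signals near the floor. With the CTNNB1 siRNA it was at -4.26, -4.10 and -4.23, between the other groups. The protease gene HTRA3 was not well above background on any NT_WNT3A array and was at -3.13, -4.54 and -2.35 in siCTRL_WNT3A, at least 5.84-fold higher (adjusted p = 0.0013). CAPG, CALHM3, CPA4 and HTRA3 kept their calls without any 1 of the 6 arrays.

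Some genes of the interferon response and of antigen presentation were called higher. Of 35 interferon-stimulated genes tested, 5 were called higher (14.3%, against 5.44% of all genes) and 0 lower (limma), with a median of 0.07, and 0 were called with spike-in scaling. In all 3 same-numbered pairs 9 of the 35 were higher and 6 lower, against 5836 and 6353 of all 24648 genes. The median differences of the list by slide were -0.02, 0.09 and -0.04. IFIT1, which binds foreign RNA, was at 2.18, 2.12 and 2.02 against 2.56, 2.74 and 2.53, with no overlap. It rose by 0.50 (SE 0.09, adjusted p = 0.00321, and 0.175 under spike-in scaling), and by 0.43 to 0.77 across the settings run. Without NT_WNT3A replicate 1 or siCTRL_WNT3A replicate 2 the list had 1 gene called higher, without NT_WNT3A replicate 3 it had 2, and without NT_WNT3A replicate 2 it had 7, with 1 lower. Of 12 genes of double-stranded RNA sensing, 1 was called higher and 1 lower (8.33% each, near the 5.44% and 3.59% of all genes). Of 13 genes of the RNA interference machinery, 1 was called higher (7.69%, and 2 genes with the replicate block) and 0 lower. Both lists had 0 calls under spike-in scaling and without NT_WNT3A replicate 1, NT_WNT3A replicate 3, siCTRL_WNT3A replicate 2 or siCTRL_WNT3A replicate 3. They had 2 calls higher each without NT_WNT3A replicate 2, and the RNA interference list had 0 without siCTRL_WNT3A replicate 1. In the antigen presentation list, 3 of 15 genes were called higher (20%) and 0 lower, with a median of 0.07. That count was 1 under spike-in scaling and without NT_WNT3A replicate 1 or siCTRL_WNT3A replicate 2, and it was 5, with 1 lower, without NT_WNT3A replicate 2. The immunoproteasome subunit PSMB9 was at 2.65, 2.82 and 3.13 against 3.42, 4.02 and 3.85. All transfected arrays were above all untransfected ones, and PSMB9 rose by 0.89 (SE 0.12, adjusted p = 0.00127), and it kept its call without any 1 of the 6 arrays. Among inflammatory mediators limma called 0 of 16 genes, against 9.04% of all genes. Of the 16, 5 had an unadjusted p under 0.05, against 5638 of all 24648 genes. The list's median of -0.35 was -0.23 without NT_WNT3A replicate 1 and -0.19 without NT_WNT3A replicate 3, and its median differences by slide were -0.42, 0.02 and -0.49. In that list 1 gene was called higher and 4 lower without NT_WNT3A replicate 2.

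Genes of stress and damage were called higher in part, and not every list was beyond the share of all genes. Under spike-in scaling, none of the metallothionein, heat shock, membrane repair, or unfolded protein and integrated stress genes was called. Of 19 metallothionein and oxidative stress genes, 6 were called higher (31.6%, against 5.44% of all genes) and 0 lower, with a median of 0.19. Metallothionein MT1B, a metal-binding protein, was at 6.34, 6.47 and 6.27 against 6.76, 6.77 and 6.77. It rose by 0.41 (SE 0.07, limma adjusted p = 0.00351, and 0.217 under spike-in scaling), with the 3 transfected arrays almost level and above the others. The rise of MT1B was 0.36 to 0.68 across the settings run. Without NT_WNT3A replicate 1 the list had 1 call, without NT_WNT3A replicate 3 also 1, without NT_WNT3A replicate 2 it had 7 with 1 lower, without siCTRL_WNT3A replicate 1 it had 3, without replicate 2 of that group 1, and without its replicate 3 there were 2. Heat shock genes had 4 of 19 called higher (21.1%), membrane repair genes 3 of 16 (18.8%) and actin cytoskeleton genes 4 of 33 (12.1%, and 2 under spike-in scaling). Genes of the unfolded protein and integrated stress responses had 2 of 22 called higher (9.09%) and 1 lower (4.55%), near the 5.44% and 3.59% of all genes. SLC7A11 (log2 change 0.76) and PHGDH (0.50) were those called higher, and XBP1 (-0.57) was called lower. The medians of the heat shock, membrane repair, actin, and unfolded protein and integrated stress lists were 0.13, 0.10, 0.07 and 0.02. In the same order their calls higher were 0, 0, 0 and 0 without NT_WNT3A replicate 1, and 0, 1, 0 and 0 without siCTRL_WNT3A replicate 2. They were 1, 3, 2 and 0 without siCTRL_WNT3A replicate 3. The unfolded protein and integrated stress genes had 0 calls in either direction without NT_WNT3A replicate 1, NT_WNT3A replicate 3, siCTRL_WNT3A replicate 2 or siCTRL_WNT3A replicate 3. They had 1 higher and 1 lower without siCTRL_WNT3A replicate 1, 3 and 3 without NT_WNT3A replicate 2, and 3 and 2 with the replicate block. Without NT_WNT3A replicate 3, 1 actin gene was called lower.

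The receiving end of the Wnt signal fell in part. Of 16 Wnt receptor genes tested, 5 were called lower (31.2%, against 3.59% of all genes) and 0 higher (limma), with a median of -0.08 that was 0.20 under spike-in scaling, with 0 calls. The co-receptor LRP5 was at 1.00, 0.82 and 1.03 against 0.56, 0.37 and 0.30, with no overlap. It fell by 0.54 (SE 0.11, adjusted p = 0.00594, and 0.669 under spike-in scaling). The Frizzled receptor FZD4 was at 1.5, 0.84 and 1.74 against 0.41, 0.38 and 0.66. It fell by 0.88 (adjusted p = 0.00607, and 0.367 under spike-in scaling), and without NT_WNT3A replicate 1 its adjusted p was 0.0553. The list had 1 gene called lower without NT_WNT3A replicate 1, 2 without NT_WNT3A replicate 3, 2 without siCTRL_WNT3A replicate 2 and 3 without siCTRL_WNT3A replicate 3. Without NT_WNT3A replicate 2 it had 5 lower and 1 higher. Of 12 Wnt feedback targets, 1 was called higher (8.33%, near the 5.44% of all genes) and 0 lower, with a median of 0.04 (1 lower with the replicate block, and 3 higher with 1 lower without NT_WNT3A replicate 2). That gene was the inhibitor NKD2, at 1.62, 1.82 and 1.42 against 1.95, 1.95 and 2.23, which rose by 0.43 (adjusted p = 0.0375). NKD2 lost its call under spike-in scaling (0.28) and without NT_WNT3A replicate 1 (0.138), NT_WNT3A replicate 3 (0.153), siCTRL_WNT3A replicate 2 (0.0865) or siCTRL_WNT3A replicate 3 (0.17).

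Matrix and fibroblast genes were called in both directions, 3 of 27 higher and 3 lower (11.1% each, against 5.44% and 3.59% of all genes), with a median of 0.04 (0 higher and 1 lower under spike-in scaling, with a median of 0.32), and 15 of the 27 are also in lists that the study drew from these arrays. COL3A1, a fibrillar collagen, had the smallest adjusted p of all genes. It was at -0.67, -1.30 and -0.74 in NT_WNT3A and at -2.59, -3.04 and -3.05 in siCTRL_WNT3A, well apart. It fell by 1.99 (SE 0.23, limma adjusted p = 0.000374), and was called without any 1 of the 6 arrays as well. In the deposited values, where another set of probes is kept, its adjusted p was 0.119. The collagen-binding proteoglycan decorin (DCN) was at 6.15, 5.93 and 6.13 against 5.27, 5.19 and 5.04, and fell by 0.90 (adjusted p = 0.00639, 0.0533 without NT_WNT3A replicate 1 and 0.415 under spike-in scaling). Without NT_WNT3A replicate 1 the list had 1 gene called higher and 1 lower, without NT_WNT3A replicate 2 it had 7 and 4 (median 0.20), without NT_WNT3A replicate 3 it had 1 and 3 (median -0.06), without siCTRL_WNT3A replicate 2 it had 1 and 2, and without siCTRL_WNT3A replicate 3 it had 1 and 3.

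Markers of the cells were read in both groups. All 8 hepatocyte markers and all 5 fibroblast markers were well above background on all 6 arrays, as were 3 of 4 biliary markers, while EPCAM was on none. Of the biliary and progenitor genes 0 of 14 were called higher and 2 lower (14.3%, against 3.59% of all genes, limma). Those called lower were SPP1 (log2 change -0.89, adjusted p = 0.0117) and CD44 (-0.25, adjusted p = 0.0346). The median of the list was -0.16, and 0.11 under spike-in scaling. In all 3 same-numbered pairs 3 of the 14 were higher and 8 lower, against 5836 and 6353 of all 24648 genes. None of the 14 was called lower under spike-in scaling or without NT_WNT3A replicate 1, NT_WNT3A replicate 3 or siCTRL_WNT3A replicate 2. There was 1 lower without siCTRL_WNT3A replicate 1 or 3, and 1 higher without NT_WNT3A replicate 2. The abundant biliary keratin KRT19 was at 7.80, 8.09 and 7.83 against 7.99, 8.13 and 8.02, with overlap (adjusted p = 0.496). Of 7 macrophage genes tested 1 was called higher (14.3%, against 5.44% of all genes). It was CSF1R, the receptor of a macrophage growth factor, at -4.20, -3.16 and -4.63 against -2.59, -2.20 and -2.19 (limma adjusted p = 0.0218). CSF1R lost its call without NT_WNT3A replicate 1 (0.115), NT_WNT3A replicate 3 (0.0972), siCTRL_WNT3A replicate 2 (0.097) or siCTRL_WNT3A replicate 3 (0.0752). The mean log2 signal of the macrophage genes was -1.71, -1.81 and -1.60 in NT_WNT3A and -1.57, -1.71 and -1.33 in siCTRL_WNT3A. The groups overlap, though siCTRL_WNT3A was the higher in each same-numbered pair. CD68 was not called (adjusted p = 0.159). Of 6 macrophage markers 5 were well above background on all 6 arrays, and CD163 was so on 1 untransfected array only. Of 5 endothelial genes 0 were called (limma), and the means were -3.32, -3.47 and -3.38 against -3.38, -3.41 and -3.22. Of 5 endothelial markers 4 were well above background on all 6 arrays, and STAB2 was so on none. Of 8 stellate and pericyte genes 2 were called higher (25%, against 5.44% of all genes). Only 1 was called without NT_WNT3A replicate 1, NT_WNT3A replicate 3 or siCTRL_WNT3A replicate 2. The median was 0.21 (0.07 without NT_WNT3A replicate 2 and 0.11 without siCTRL_WNT3A replicate 3), or 0.16 with genes below detection in 1 group at their bounds. The means of that list were -3.82, -3.86 and -3.85 against -3.71, -3.54 and -3.51. Of 5 stellate and pericyte markers 2 were well above background on all 6 arrays, and GFAP was so on none. The part of these cell types in the changes above was not tested.

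The same contrast without Wnt3a used other arrays on the same 3 slides. There, 3022 genes were called higher (12.3%) and 2479 lower (10.1%). Without NT replicate 1 the counts were 2003 and 1366, and under spike-in scaling, which moved the median of all genes to -0.31 there, they were 122 and 1406. Of the 1342 genes called higher with Wnt3a, 1088 (81.1%) were also called higher without it, which is 36% of that list. Of the 885 called lower, 740 (83.6%) were also lower without Wnt3a, which is 29.9% of that list, and 0 genes were called in opposite directions. The plasma protein genes had a median of -1.65 without Wnt3a, liver enzymes -2.04, DNA replication genes 0.95 and mitosis genes 1.06. The difference between the changes with and without Wnt3a was tested itself: limma called 0 genes, the smallest adjusted p was 0.621, and 1183 of 24648 genes had an unadjusted p under 0.05. The block gave 0 as well, and the looser rule of the methods (p under 0.01 before adjustment, and a ratio over 1.5 or under 0.7) gave 63 and 50 genes.

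**Figure D4:**
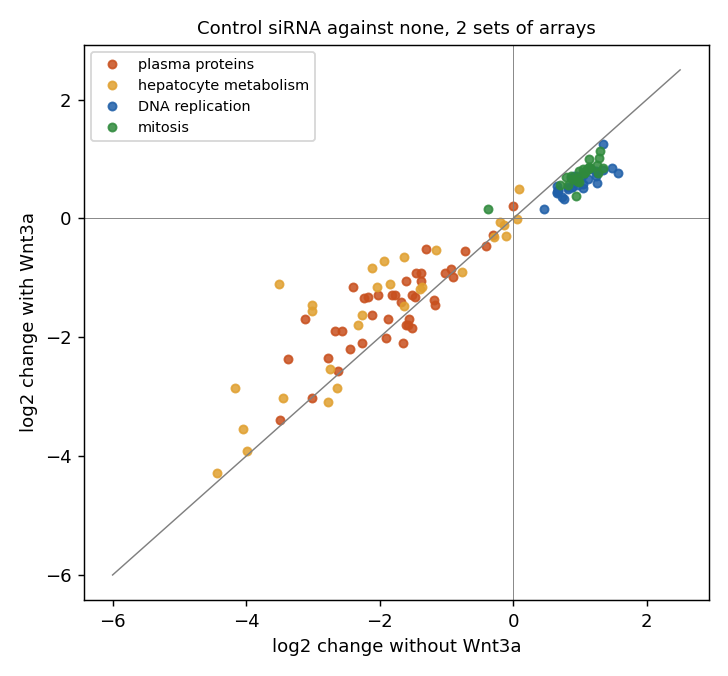
Log2 change of each gene of 4 lists for control siRNA against none, without Wnt3a on the x axis and with Wnt3a on the y axis, with the line of equal change in grey. At the lower left lie 40 of 41 plasma protein genes and 27 of 29 liver enzymes, and at the upper right 30 of 30 DNA replication genes and 24 of 25 mitosis genes.

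The levels of these groups varied across the other conditions. The mean log2 signal of the plasma protein genes was 4.68, 3.75 and 2.85 in NT, and 2.03, 1.96 and 1.94 in siCTRL. The NT and NT_WNT3A arrays thus spread more than the siCTRL and siCTRL_WNT3A arrays. In FZ8CRD_WNT3A, which was not transfected, the mean was 1.85, 1.84 and 1.90, below every NT_WNT3A array. Its mitosis genes were at 2.62, 2.57 and 2.37, above every NT_WNT3A array. In siCTNNB1_WNT3A the plasma protein mean was 1.42, 1.82 and 2.23 and the mitosis mean 2.77, 2.64 and 2.40. FABP1 was at -2.63, -2.05 and -1.46 there, above all 3 siCTRL_WNT3A arrays. The CTNNB1 siRNA contrast against untransfected cells shares the NT_WNT3A arrays, and its log2 change for FABP1 was -1.88, against -4.03 with the control siRNA. For ALB the values were -0.90 and -2.09, for PLK1 1.44 and 1.13, and for COL3A1 -3.19 and -1.99.

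**Figure D5:**
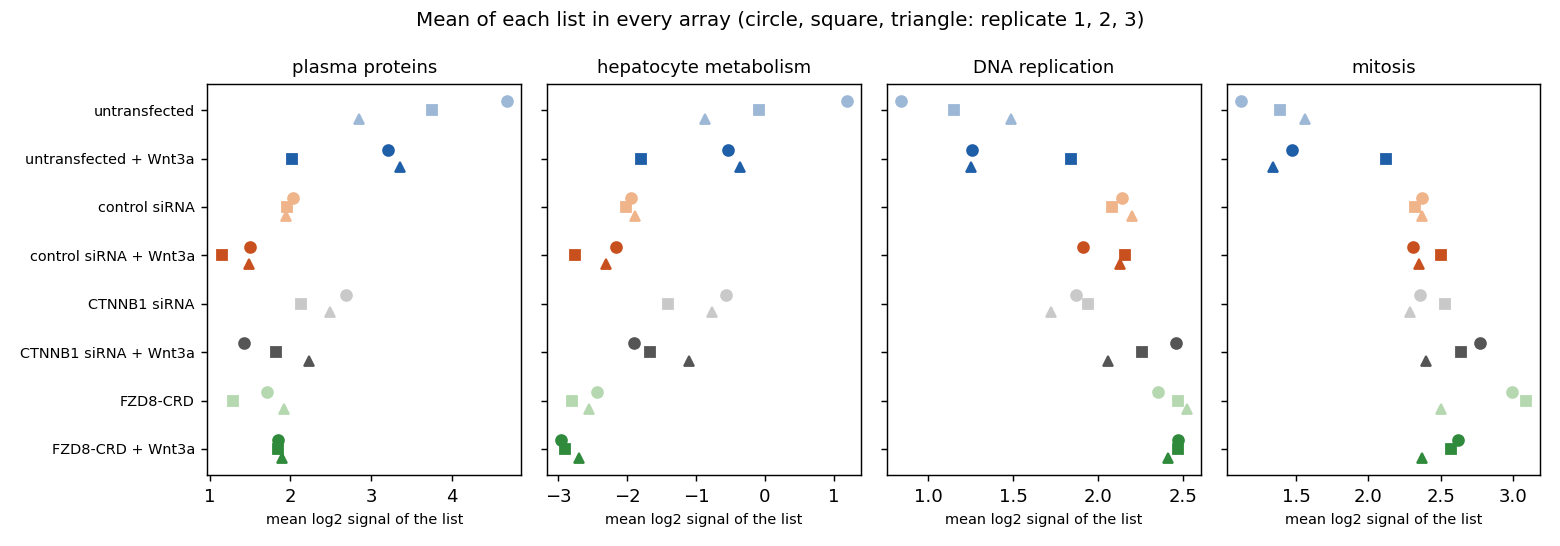
Mean log2 signal of 4 gene lists in each of the 24 arrays, with a row per condition and a symbol per replicate. For plasma proteins the NT_WNT3A arrays are at 3.21, 2.02 and 3.36, and the siCTRL_WNT3A arrays at 1.5, 1.15 and 1.49.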

How the data were processed

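Gene expression was measured with one-colour Agilent arrays, 3 for each of 8 conditions, and groups came from the sample labels. The authors deposited spot values in units of intensity, background-subtracted and detrended by Agilent Feature Extraction (10.7.1.1 in the file headers). The authors also deposited log2 values, scaled to an array's 75th percentile and centred per probe, which served as an alternative. Spots marked as outliers were left out. Intensities were divided by the array's 75th percentile and taken to log2, with a floor at the detection limit, and 31067 probes that passed the filter on dim signals gave 24648 genes, each by its brightest probe. Of 4839 genes with several kept probes, 648 had some called and others not, and 1 had probes called in opposite directions. A mean per condition was fitted with limma 3.58.1 (eBayes with trend) in R 4.3.3, two-sided. A gene well above background on no array of 1 group was given a bound, the brighter mean against the lowest well-above signal of the dim arrays or their own value where higher. Called genes with the largest changes, called list members and the brightest list members could be named. Members and lists were chosen with earlier results of these data known. The replicate numbers pair the samples: deviations from group means correlated at 0.556, 0.322 and 0.513 in the same-numbered pairs of both groups and at -0.365 to -0.0214 in the other 6. Alternatives were quantile and spike-in scaling, the deposited values, normexp with offset 50, other filters, probe means, marked spots kept, another floor, the replicate block, only the groups compared, no moderation, the methods' thresholds and leaving out replicates or arrays; the block with only the groups compared was added after seeing the data. Some items are not reported here. Promoter words were counted in RefSeq promoters.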

Additional observations from a re-analysis of the deposited data

How the results depend on the processing

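The counts of genes called for control siRNA against none with Wnt3a depended on the setting, and the cause was not tested. Of higher and lower genes there were 134 and 106 with spike-in scaling, 2269 and 1485 with the replicate block, 0 and 1 with only the groups compared, 0 and 1 without moderation on those groups, and 95 and 164 with the block on only those groups, which was chosen after seeing the data. The methods' thresholds gave 539 higher, and no filter on dim probes gave 579 lower. Leaving out replicates or single arrays gave 1 to 2412 higher and 0 to 1633 lower. An array left alone or in a pair is assumed to vary like the other groups.

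Without Wnt3a the counts higher were 122 with spike-in scaling, 872 without moderation and 1062 with the methods' thresholds. The counts lower were 1406 with spike-in scaling, 3823 with the block, 1547 with only the groups compared, 360 without moderation and 1622 with the methods' thresholds. Leaving out replicates or arrays gave 148 to 3578 higher and 85 to 3298 lower. For the difference with and without Wnt3a, no filter gave 7 and 1, the methods' thresholds 63 and 50, and leaving out replicates or arrays 0 to 1 in each direction.

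Of 31 genes followed through the settings, which leave out some genes named above, 27 were called. Of these 27 genes, 26 were no longer called with only the groups compared, 27 without moderation, 27 without replicate 1 of all conditions and 9 with spike-in scaling. The block changed the call of 0 of the 31 genes followed, and none of them changed direction in any setting run.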

Other observations

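Genes of cholesterol and fatty acid synthesis had 8 of 28 called lower (28.6%, against 3.59% of all genes) and 0 higher in control siRNA cells with Wnt3a (limma), with a median log2 change of -0.31 that was -0.04 under spike-in scaling, with 0 calls. Their mean log2 signal was 3.06, 2.78 and 3.17 in NT_WNT3A and 2.73, 2.70 and 2.67 in siCTRL_WNT3A, with no overlap. Without NT_WNT3A replicate 1 or siCTRL_WNT3A replicate 2 the list had 0 calls, without NT_WNT3A replicate 3 (median -0.20) or siCTRL_WNT3A replicate 3 it had 1, without siCTRL_WNT3A replicate 1 it had 5 and without NT_WNT3A replicate 2 it had 14. Of 12 genes of the EGF family 3 were called higher and 2 lower (25% and 16.7%, against 5.44% and 3.59% of all genes). None was called under spike-in scaling or without NT_WNT3A replicate 1 or siCTRL_WNT3A replicate 2. There were 1 and 1 without replicate 3 of either group, and 3 and 4 without NT_WNT3A replicate 2. The receptor gene ERBB3 was at 1.44, 0.47 and 1.78 against 0.17, -0.25 and 0.01, and fell by 1.25 (adjusted p = 0.00774, and 0.0602 without NT_WNT3A replicate 1, 0.057 without siCTRL_WNT3A replicate 2, 0.132 under spike-in scaling). YAP and TAZ targets had 2 of 19 called higher (10.5%, against 5.44% of all genes; 1 under spike-in scaling and without NT_WNT3A replicate 1 or siCTRL_WNT3A replicate 2, and 1 more lower without NT_WNT3A replicate 3), with a median of -0.07 that was 0.21 under spike-in scaling. One of them, the receptor kinase AXL, was at 2.70, 3.13 and 2.60 against 3.34, 3.54 and 3.42, and rose by 0.62 (adjusted p = 0.00344, and 0.103 under spike-in scaling). The rise of AXL was 0.52 to 0.90 across the settings run. Immediate early genes had 1 of 20 called higher (2 with the replicate block) and 1 lower, 5% each, near the shares of all genes. The call lower was lost without any 1 of the 6 arrays, and the call higher without NT_WNT3A replicate 1, siCTRL_WNT3A replicate 2 or siCTRL_WNT3A replicate 3, and both under spike-in scaling.

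The study drew lists from these arrays among genes that changed with Wnt3a, so that their direction here is not independent evidence. One list holds genes changed by Wnt3a that the study set aside as affected by the control siRNA. It is thus not independent of the contrast made here. Of all genes tested 5.44% were called higher and 3.59% lower, and some counts below are near these shares. Of its 101 genes tested that were higher with Wnt3a in untransfected cells, 20 were called higher and 1 lower for control siRNA against none with Wnt3a, with a median of 0.185. Of its 56 that were lower with Wnt3a, 0 were called higher and 6 lower (limma), with a median of -0.23. In the list of genes sensitive to the CTNNB1 siRNA, 12 of 96 that were higher with Wnt3a were called higher and 4 lower, against 0 and 1 of 35 that were lower with it (medians 0.16 and -0.32). In the list of genes that siRNA left as they were, the counts were 6 and 0 of 26, and 0 and 5 of 20 (medians 0.32 and -0.67). All these contrasts use the NT_WNT3A arrays.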
